A study of Mus musculus with 24 samples.

Results

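The 10 genes described here encode ligands, an antagonist and feedback or response proteins of the TGF-beta superfamily. They were chosen by name: the ligand genes Mstn, Inhba, Tgfb1, Tgfb2, Tgfb3 and Bmp4, the antagonist gene Fst, the inhibitory SMAD genes Smad6 and Smad7, and the TGF-beta-induced matrix gene Tgfbi. All 10 were found among the 24043 gene symbols of the deposited expression table. The cells were C2C12, an immortal mouse myoblast line that divides in serum-rich medium and fuses into myotubes when serum is withdrawn. RNA-seq was done in 4 groups of 2 libraries, labelled as biological replicates A and B: growth medium with 10% fetal bovine serum at 21% oxygen (normoxia), growth medium at 2% oxygen (hypoxia), differentiation medium with 2% horse serum and an insulin, transferrin and selenium supplement at 21% oxygen, and differentiation medium at 2% oxygen. All groups are 1 unmodified cell line, so a replicate is not a separate animal. Where 2 values are given for a group, they are replicates A and B. How the replicates were separated (by passage, day or dish) is not stated, and p-values measure only the spread between these libraries. The labels give no length of exposure to low oxygen and leave out the number of days in differentiation medium. The series also holds 16 chromatin libraries (H3K27me3 immunoprecipitation and input), which are not analysed here.

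Ligands of this superfamily are secreted dimers that bring together type II and type I receptor kinases at the cell surface. TGF-beta, activin and myostatin receptors mainly phosphorylate SMAD2 and SMAD3, whereas BMP receptors phosphorylate SMAD1, SMAD5 and SMAD9, and each set enters the nucleus with SMAD4. SMAD6 and SMAD7 are induced by these signals and block the receptors, which closes a feedback loop. In muscle, myostatin limits growth, follistatin (Fst) binds and neutralises myostatin and activin, TGF-beta holds back myoblast differentiation, and BMP can turn C2C12 cells away from the muscle fate towards an osteoblast-like one.

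Promoter sequences for 7 of the 10 genes were matched in a RefSeq table of build GRCm38.p6. Those of 5 genes are shown, because these genes moved together (Bmp4 and Smad6), moved in opposite directions with oxygen (Inhba and Tgfb2) or were read in differentiation medium alone (Mstn). Each run is the 250 bases before the annotated start, 5′ to 3′ on the gene's strand. Capitals mark matches, on either strand, to the E-box CANNTG (bound by MyoD-type factors), the SMAD motif CAGAC, the hypoxia response core ACGTG or GCGTG, and the BMP-SMAD motif GGCGCC.
Mstn (chr1:53061390-53061639, plus strand): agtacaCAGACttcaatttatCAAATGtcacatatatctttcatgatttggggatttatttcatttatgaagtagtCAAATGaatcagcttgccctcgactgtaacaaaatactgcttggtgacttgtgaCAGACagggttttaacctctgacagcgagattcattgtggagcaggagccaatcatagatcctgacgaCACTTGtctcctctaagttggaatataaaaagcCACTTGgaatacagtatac
Inhba (chr13:16011601-16011850, plus strand): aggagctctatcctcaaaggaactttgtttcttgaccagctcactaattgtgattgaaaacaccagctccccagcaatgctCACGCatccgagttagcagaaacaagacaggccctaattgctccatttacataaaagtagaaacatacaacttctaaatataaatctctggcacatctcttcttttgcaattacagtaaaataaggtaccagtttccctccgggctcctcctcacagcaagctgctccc
Tgfb2 (chr1:186705990-186706239, minus strand): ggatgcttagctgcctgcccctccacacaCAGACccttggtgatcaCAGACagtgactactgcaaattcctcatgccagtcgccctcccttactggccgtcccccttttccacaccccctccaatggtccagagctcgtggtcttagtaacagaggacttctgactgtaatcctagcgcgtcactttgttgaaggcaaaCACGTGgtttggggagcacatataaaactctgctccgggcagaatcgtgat
Bmp4 (chr14:46390670-46390919, minus strand): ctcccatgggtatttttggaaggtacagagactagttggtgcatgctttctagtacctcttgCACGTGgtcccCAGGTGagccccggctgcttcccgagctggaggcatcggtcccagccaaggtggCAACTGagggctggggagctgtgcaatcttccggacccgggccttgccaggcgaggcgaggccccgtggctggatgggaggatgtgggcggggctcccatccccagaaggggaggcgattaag
Smad6 (chr9:64022060-64022309, minus strand): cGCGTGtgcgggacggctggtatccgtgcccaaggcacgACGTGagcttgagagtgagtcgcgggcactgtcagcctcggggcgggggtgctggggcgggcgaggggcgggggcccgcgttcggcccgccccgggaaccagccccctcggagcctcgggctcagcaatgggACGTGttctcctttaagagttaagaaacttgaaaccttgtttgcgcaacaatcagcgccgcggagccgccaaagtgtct
The Mstn window held 4 E-boxes and 2 SMAD motifs, Bmp4 held 3 E-boxes, and Tgfb2 held 1 E-box and 2 SMAD motifs. The letters CACGTG in Tgfb2 and in Bmp4 are at once an E-box and a hypoxia core read on each strand. Smad6 held 3 hypoxia cores and Inhba 1. Of 32851 such windows in the table, 66.2% held an E-box, 42.2% the SMAD motif, 38.6% a hypoxia core and 9.59% GGCGCC. The matches are letters in these windows and no binding was measured at them.

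Each library had between 14917 and 15672 genes above 0. Values are FPKM, fragments per length of transcript scaled to the size of the library, so levels of different genes are compared per length. The summed FPKM of 13 muscle genes was 371.7 to 448.5 at 21% oxygen and 125.0 to 134.9 at 2% in growth medium, and 13730 to 13850 at 21% and 84.1 to 98.2 at 2% in differentiation medium. On differentiation 12 of the 13 rose at 21% oxygen, and 5 rose and 2 fell at 2%, where Myog reached 4.49 and 2.14 FPKM against 2576 and 2642 at 21%. All 13 were lower at 2% than at 21% oxygen in differentiation medium. Myod1, which marks myoblasts, was 108.1 to 180.5 FPKM in the 4 normoxic libraries and 6.95 to 26.1 in the 4 hypoxic ones. The 2 hypoxic differentiation libraries stood apart from each other: 613 genes differed by more than 2-fold between them, against 56 to 71 in the other groups, and the sum of 15 cell cycle genes was 180.6 FPKM in A and 625.9 in B. The sum of 5 leukocyte genes was 25.8 and 43.0 in that group and 1.98 to 3.59 elsewhere, and only Cd68, a lysosomal gene, exceeded 1 FPKM, while Ptprc was at most 0.0137 and Emr1 was listed at 0. The sum of 5 endothelial genes was at most 0.519 FPKM, and that of 8 adipocyte genes 4.17 to 29.9, with Plin1 and Cidec listed at 0. The sum of 8 osteoblast genes was 1590 to 1605 and 614.5 to 652.5 FPKM in growth medium (21% and 2% oxygen) and 389.0 to 428.0 and 134.5 to 150.1 in differentiation medium. Spp1 made up most of it, except at 21% oxygen in differentiation medium, where the near-identical osteocalcin genes Bglap (93.0 and 75.5 FPKM) and Bglap2 (166.7 and 147.6) exceeded Spp1 (156.4 and 154.4) when added together. On differentiation at 21% oxygen 2 of 5 tested osteoblast genes rose and 3 fell, while Alpl, Sp7 and Ibsp stayed under 1 FPKM in every library. The part of these cells or states in the results was not tested.

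**Figure D1:**
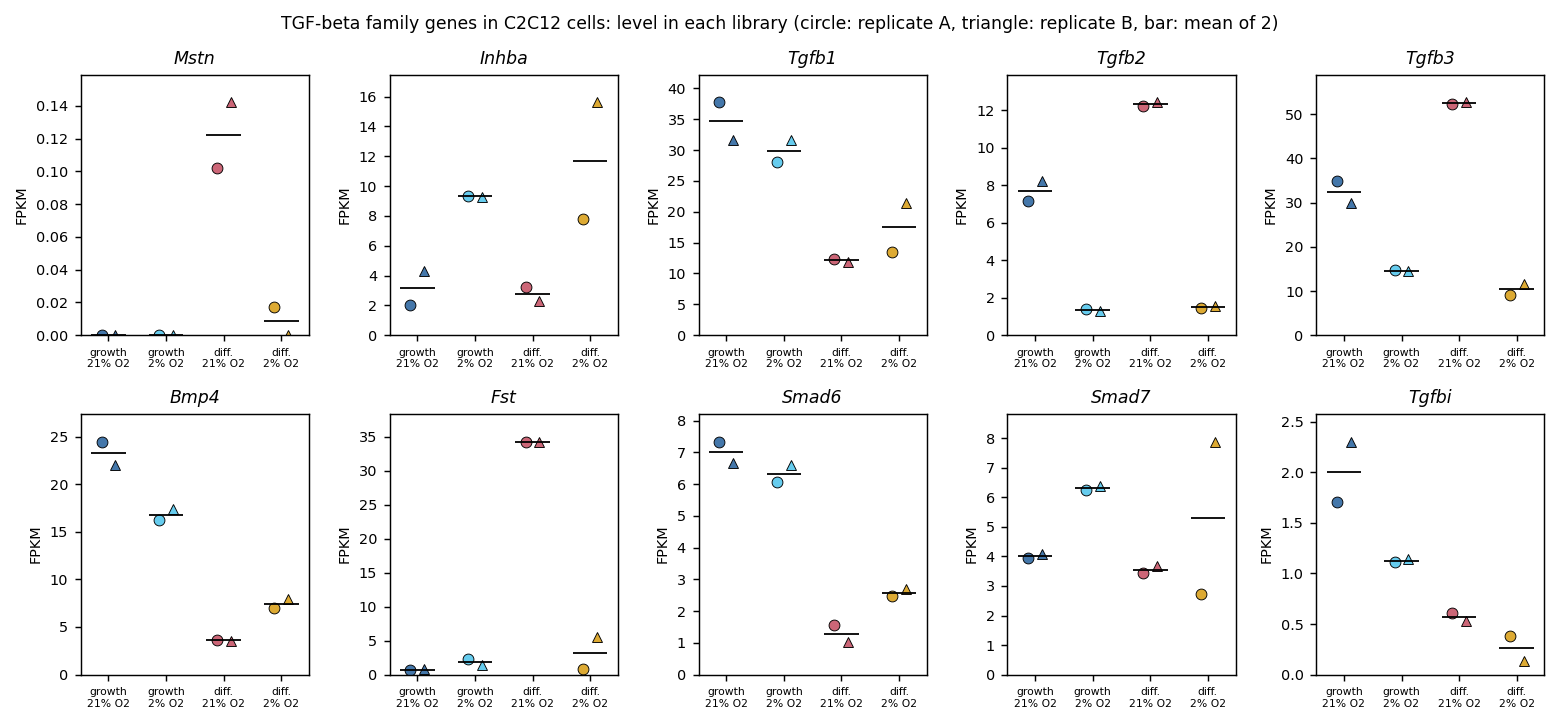
Level of each of the 10 genes in each of the 8 libraries, in FPKM on a linear axis from 0 that differs between panels. Circles are replicate A, triangles replicate B and bars the mean of the 2. Fst, Tgfb2 and Tgfb3 are highest in normoxic differentiation medium, Bmp4, Smad6, Tgfb1 and Tgfbi in normoxic growth medium, and Mstn does not reach 0.15 FPKM anywhere.

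Myostatin transcripts were almost absent. Mstn was listed at 0 FPKM in all 4 growth medium libraries. In normoxic differentiation medium it was 0.102 FPKM in A and 0.142 in B, and in hypoxic differentiation medium 0.0174 in A and 0 in B. The normoxic differentiation libraries were thus the highest and did not overlap the others. Low values in the table were taken to be whole multiples of what 1 fragment is worth, which was not tested. The reading of hypoxic differentiation replicate A was itself taken as 1 step, which assumes that it came from 1 fragment. After correction for relative depth the normoxic readings of A and B were 4.0 and 7.0 times that step. On that assumption the level worth 3 such steps was 0.0521 to 0.0824 FPKM. A reading below it, such as that of the hypoxic library, cannot then be told from 0 beyond counting error. Mstn did not pass the filter on low values and is in none of the counts below. In a limma fit without that filter, the log2(FPKM + 1) difference was 0.17 ± 0.02 (SE, adjusted p 0.00153) for differentiation in normoxia and -0.15 ± 0.02 (adjusted p 0.00213) for hypoxia in differentiation medium. These SE and p-values rest on the spread between libraries, to which the 4 growth medium libraries at 0 add none. They leave out the counting error of such low readings. Gdf11, the gene of the close myostatin relative that uses the same type II receptors, was chosen after its values were seen. It was 7.997 and 8.47 FPKM at 21% oxygen and 5.15 and 4.95 at 2% in growth medium, and 3.97 and 3.98 at 21% and 6.999 and 8.44 at 2% in differentiation medium. Gdf11 thus fell on differentiation in normoxia (-0.89 ± 0.11, adjusted p 0.000453) and rose in hypoxia (0.52 ± 0.11, adjusted p 0.0112). The rise in hypoxia lost its call without either hypoxic growth medium library (adjusted p 0.0596 without A and 0.0759 without B) and with only the hypoxic libraries fitted (0.0719).

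Follistatin rose steeply on normoxic differentiation, and the change at 2% oxygen was smaller. At 21% oxygen Fst was 0.640 FPKM in A and 0.808 in B in growth medium, and 34.3 and 34.2 in differentiation medium. At 2% oxygen it was 2.25 and 1.39 in growth medium and 0.767 and 5.55 in differentiation medium. Both normoxic differentiation libraries lay above all others, and the 2 hypoxic differentiation libraries differed 7.24-fold. The mean rose 47.3-fold in normoxia, a fitted log2 change of 4.35 ± 0.54 (adjusted p 0.000453), and hypoxic differentiation medium was 10.8-fold lower than normoxic (-3.37 ± 0.54, adjusted p 0.00154). The difference between the 2 differentiation responses was -4.07 ± 0.77 (adjusted p 0.00457). On differentiation in hypoxia the change was 0.29 with a 95% interval of -1.01 to 1.59, and the direction followed 1 library: 1.23 without A (adjusted p 0.00326) and -0.66 without B (adjusted p 0.0345) of the hypoxic differentiation group. Hypoxia in growth medium gave 0.69 ± 0.54, which did not pass the threshold (adjusted p 0.344), though the libraries did not overlap. It passed without either hypoxic differentiation library (adjusted p 0.0110 without A and 0.0111 without B) and with only the growth medium libraries fitted (adjusted p 0.0324).

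Inhba encodes the subunit that forms activin A, a ligand that follistatin binds, and it was higher at 2% oxygen in both media. It was 2.02 and 4.30 FPKM at 21% oxygen and 9.36 and 9.25 at 2% in growth medium, and 3.22 and 2.32 at 21% and 7.78 and 15.6 at 2% in differentiation medium. All 4 hypoxic libraries were above all 4 normoxic ones. Hypoxia raised Inhba 2.94-fold in growth medium (1.37 ± 0.36, adjusted p 0.0232) and 4.22-fold in differentiation medium (1.69 ± 0.36, adjusted p 0.00569). The growth medium call was lost without normoxic growth replicate A (0.96, adjusted p 0.127), without either hypoxic growth library (adjusted p 0.103 and 0.0976) and, narrowly, without either normoxic differentiation library (adjusted p 0.0511 and 0.0512). Differentiation medium itself gave -0.10 in normoxia (95% interval -0.96 to 0.77) and 0.23 in hypoxia (-0.64 to 1.09). Read as a ratio of FPKM, Fst exceeded Inhba 10.6-fold and 14.7-fold in the normoxic differentiation libraries. In the other 6 libraries Inhba exceeded Fst, by 2.81-fold to 10.1-fold. This ratio leaves out Inhbb, another activin subunit gene, which was above Inhba in every growth medium library. Inhbb was 21.0 and 19.9 FPKM at 21% oxygen and 24.7 and 28.3 at 2% in growth medium. In differentiation medium it was 4.00 and 3.93 at 21% and 2.31 and 2.84 at 2%.

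**Figure D2:**
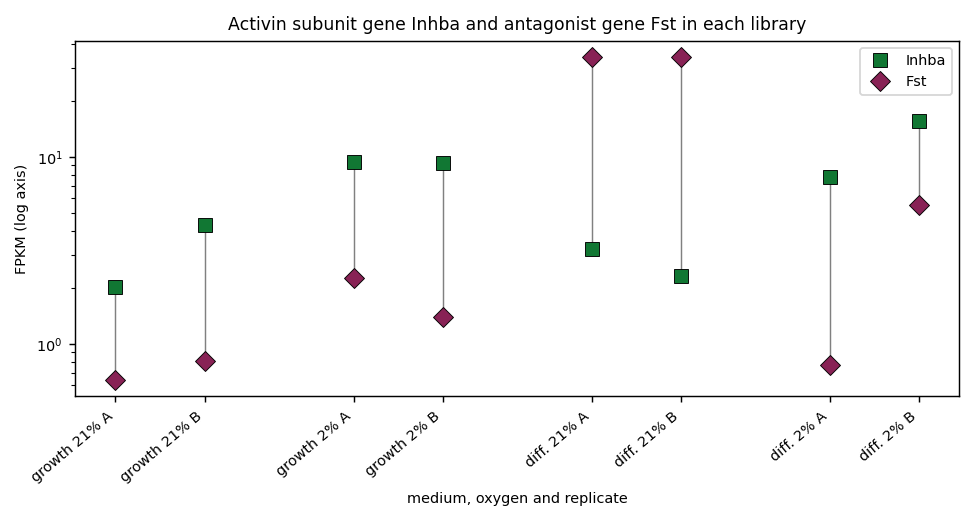
FPKM of the activin subunit gene Inhba (squares) and the antagonist gene Fst (diamonds) in each library, on a log axis, joined by a line per library. Fst is the higher of the pair in both normoxic differentiation libraries, and Inhba in the other 6.

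The TGF-beta isoform genes parted in differentiation medium and again in low oxygen. Tgfb1, the isoform of most tissues, was 37.7 and 31.7 FPKM at 21% oxygen and 28.0 and 31.6 at 2% in growth medium, and 12.4 and 11.9 at 21% and 13.4 and 21.5 at 2% in differentiation medium. It fell 2.86-fold on differentiation in normoxia (-1.44 ± 0.21, adjusted p 0.000873) and 1.71-fold in hypoxia (-0.77 ± 0.21, adjusted p 0.0249). Every differentiation medium library was below every growth medium library. The fall in hypoxia lost its call with only the hypoxic libraries fitted (adjusted p 0.102), without hypoxic growth replicate A (0.0790) or B (0.132) and without normoxic differentiation replicate A (0.0581) or B (0.0582). It was -1.09 without hypoxic differentiation replicate B and -0.45 without its replicate A, both past the threshold. Oxygen made no difference past the threshold, at -0.21 in growth medium (95% interval -0.70 to 0.29) and 0.46 in differentiation medium (-0.04 to 0.95). Without hypoxic differentiation replicate A the latter was 0.78 (adjusted p 0.00237), and the difference between the differentiation responses was 0.98 (adjusted p 0.00311) in place of 0.67 (adjusted p 0.0948).

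Tgfb2 showed the sharpest oxygen contrast of the 3. At 21% oxygen it was 7.15 and 8.21 FPKM in growth medium and 12.2 and 12.4 in differentiation medium, but at 2% it was 1.38 and 1.29, and 1.47 and 1.55. All 4 hypoxic libraries were below all 4 normoxic ones. Hypoxia lowered it 5.75-fold in growth medium (-1.89 ± 0.10, adjusted p 6.94e-05) and 8.17-fold in differentiation medium (-2.41 ± 0.10, adjusted p 3.73e-06). On differentiation it rose 1.61-fold in normoxia (0.62 ± 0.10, adjusted p 0.00177). In hypoxia the change was 0.10 (95% interval -0.14 to 0.35). The difference between these responses was -0.52 ± 0.15 (adjusted p 0.0228). That call did not hold at a pseudocount of 0.1 FPKM (adjusted p 0.0561) or without normoxic growth replicate A (0.0569), hypoxic growth replicate A (0.0832) or B (0.0624), or normoxic differentiation replicate A (0.0675) or B (0.0751).

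Tgfb3 ran close to Tgfb2. It was 35.0 and 29.8 FPKM at 21% oxygen and 14.7 and 14.5 at 2% in growth medium, and 52.4 and 52.6 at 21% and 9.07 and 11.6 at 2% in differentiation medium, with no overlap between any 2 groups. Hypoxia lowered it 2.22-fold in growth medium (-1.09 ± 0.13, adjusted p 0.000972) and 5.07-fold in differentiation medium (-2.25 ± 0.13, adjusted p 1.29e-05). Differentiation raised Tgfb3 in normoxia (0.68 ± 0.13, adjusted p 0.00306) and lowered it in hypoxia (-0.47 ± 0.13, adjusted p 0.0276), a difference of -1.15 ± 0.18 (adjusted p 0.00213). The fall in hypoxia lost its call with only the hypoxic libraries fitted (adjusted p 0.0985), without hypoxic growth replicate A (0.118) or B (0.113), without normoxic differentiation replicate A or B (0.0631 each) and without hypoxic differentiation replicate A (-0.30, adjusted p 0.0539). Summed FPKM of the 3 isoform genes was 69.7 to 79.8 in growth medium and 76.9 to 77.0 in differentiation medium at 21% oxygen, against 44.1 to 47.4 and 24.0 to 34.7 at 2%. Within that sum Tgfb3 made up 68.1% and 68.4% in normoxic differentiation medium and Tgfb1 16.1% and 15.4%. In the hypoxic libraries Tgfb1 made up 56.0% to 66.7%.

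**Figure D3:**
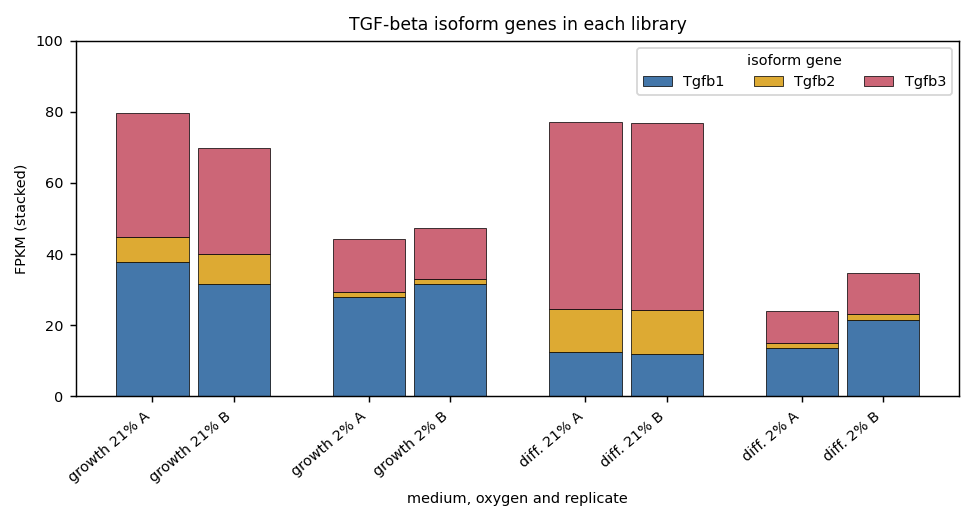
Stacked FPKM of Tgfb1, Tgfb2 and Tgfb3 in each library, on an axis from 0. The normoxic stacks reach 69.7 to 79.8 in both media, with Tgfb3 the largest part in differentiation medium, and the hypoxic stacks reach 24.0 to 47.4.

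Bmp4 and Smad6 fell together in differentiation medium, and less so at 2% oxygen. Bmp4, a ligand of the BMP branch, was 24.5 and 22.0 FPKM at 21% oxygen and 16.2 and 17.4 at 2% in growth medium, and 3.64 and 3.54 at 21% and 6.96 and 7.96 at 2% in differentiation medium. Smad6, whose product mainly blocks BMP receptors, was 7.33 and 6.66 FPKM at 21% oxygen and 6.07 and 6.59 at 2% in growth medium, and 1.55 and 1.02 at 21% and 2.46 and 2.71 at 2% in differentiation medium. For both genes the 4 groups ranked alike and did not overlap. Bmp4 fell 6.48-fold on differentiation in normoxia (-2.399 ± 0.10, adjusted p 4.42e-06) and 2.25-fold in hypoxia (-1.08 ± 0.10, adjusted p 0.000732), and these responses differed by 1.32 ± 0.15 (adjusted p 0.000485). Smad6 fell 5.45-fold in normoxia (-1.82 ± 0.14, adjusted p 4.92e-05) and 2.45-fold in hypoxia (-1.03 ± 0.14, adjusted p 0.00209). Its responses differed by 0.78 ± 0.20 (adjusted p 0.0144), a call lost when libraries were rescaled by the median of ratios (0.55, adjusted p 0.0519) and without hypoxic growth replicate A (0.73, adjusted p 0.0578). In differentiation medium hypoxia left Bmp4 2.08-fold higher (0.88 ± 0.10, adjusted p 0.000352) and Smad6 2.01-fold higher (0.66 ± 0.14, adjusted p 0.00530) than normoxia. In growth medium hypoxia lowered Bmp4 1.38-fold (-0.44 ± 0.10, adjusted p 0.0145). That call was lost without normoxic growth replicate A (adjusted p 0.0753) and without hypoxic growth replicate A (0.102) or B (0.0582). Smad6 in growth medium differed by -0.13 (95% interval -0.46 to 0.21).

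Target genes of the BMP branch did not all follow Bmp4. Id1 and Id3 encode inhibitors of MyoD-type factors that BMP induces, and both were singled out after their values were seen. Id3 was 444.3 and 359.4 FPKM at 21% oxygen and 116.5 and 113.8 at 2% in growth medium, and 116.5 and 111.8 at 21% and 13.8 and 26.1 at 2% in differentiation medium. Both oxygen contrasts lowered it, by -1.79 ± 0.26 in growth medium (adjusted p 0.00240) and -2.53 ± 0.26 in differentiation medium (adjusted p 0.000196). Id1 fell likewise with hypoxia, by -1.58 ± 0.28 (adjusted p 0.00499) and -2.68 ± 0.28 (adjusted p 0.000197). Of the 14 tested BMP response genes, hypoxia in growth medium lowered 5 and raised 4, where it lowered 28% and raised 13.5% of all genes. In differentiation medium hypoxia lowered 7 and raised 3, where it lowered 27.7% and raised 37.5% of all genes. Those raised in differentiation medium, as Bmp4 was, were the homeobox genes Dlx3 (2.79 ± 0.11) and Dlx2 (0.64 ± 0.18, adjusted p 0.0173) and Grem1. Id2 differed by 0.46 in growth medium (adjusted p 0.077) and by -0.22 in differentiation medium (adjusted p 0.298). Grem1, which encodes the secreted BMP antagonist gremlin, rose with hypoxia in both media. It was 133.9 and 168.2 FPKM at 21% oxygen and 625.8 and 624.7 at 2% in growth medium, and 11.4 and 9.65 at 21% and 113.1 and 113.0 at 2% in differentiation medium. The difference with hypoxia was 2.05 ± 0.12 in growth medium (adjusted p 9.84e-05) and 3.31 ± 0.12 in differentiation medium (adjusted p 2.25e-06).

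Smad7, which blocks TGF-beta, activin and BMP receptors alike, passed the threshold in no comparison. It was 3.95 and 4.09 FPKM at 21% oxygen and 6.24 and 6.39 at 2% in growth medium, and 3.42 and 3.67 at 21% and 2.72 and 7.89 at 2% in differentiation medium. The last 2 libraries were the lowest and the highest of the 8. Hypoxia in growth medium gave 0.54 with a 95% interval of -0.31 to 1.40 (adjusted p 0.265), since limma pools the spread over the groups. With only the growth medium libraries fitted the same value had an adjusted p of 0.0108, and without hypoxic differentiation replicate A or B one of 0.00196 or 0.00204. In differentiation medium the difference with hypoxia was 0.34 with all libraries, 0.97 without hypoxic differentiation replicate A (adjusted p 0.000238) and -0.29 without its replicate B (adjusted p 0.0359). The change on differentiation in hypoxia was -0.35, or 0.28 without A (adjusted p 0.0471) and -0.97 without B (adjusted p 0.00101), so it had no direction common to both libraries. The difference between the differentiation responses was likewise -0.20, or 0.42 without A (adjusted p 0.0225) and -0.83 without B (adjusted p 0.00202).

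Tgfbi, a matrix protein gene named for its induction by TGF-beta, was low throughout. It was 1.71 and 2.30 FPKM at 21% oxygen and 1.11 and 1.14 at 2% in growth medium, and 0.612 and 0.529 at 21% and 0.383 and 0.138 at 2% in differentiation medium. No 2 groups overlapped. It fell on differentiation in normoxia (-0.93 ± 0.14, adjusted p 0.00107) and in hypoxia (-0.76 ± 0.14, adjusted p 0.00632), which are 3.51-fold and 4.33-fold in FPKM. Hypoxia lowered it in growth medium (-0.49 ± 0.14, adjusted p 0.0295). That call was lost under 8 of 13 alternatives, among them the pseudocount of 0.1 FPKM (adjusted p 0.129) and leaving out normoxic growth replicate B (0.124), either hypoxic growth library (0.119 without A, 0.108 without B) or either normoxic differentiation library (0.0517 without A, 0.0521 without B). In differentiation medium the difference with hypoxia was -0.32 (95% interval -0.66 to 0.01, adjusted p 0.0787). It passed without hypoxic differentiation replicate A (-0.47, adjusted p 0.0225) and at a pseudocount of 0.1 FPKM (-0.98, adjusted p 0.0446), and after median-of-ratios scaling (-0.38, adjusted p 0.0499).

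The counts over the 9 tested genes were read against the share of all 12389 tested genes. On differentiation in normoxia 3 rose (Fst, Tgfb2, Tgfb3) and 4 fell (Tgfb1, Bmp4, Smad6, Tgfbi), where 25.5% of all tested genes rose and 41% fell. On differentiation in hypoxia 0 rose, by limma and also at an unadjusted p under 0.05, and 5 fell (Tgfb1, Tgfb3, Bmp4, Smad6, Tgfbi), against 23.3% and 17.6% of all genes. Hypoxia in growth medium raised 1 (Inhba) and lowered 4 (Tgfb2, Tgfb3, Bmp4, Tgfbi), against 13.5% and 28%. Hypoxia in differentiation medium raised 3 (Inhba, Bmp4, Smad6) and lowered 3 (Tgfb2, Tgfb3, Fst), against 37.5% and 27.7%. The difference between the differentiation responses was positive for Bmp4 and Smad6 and negative for Fst, Tgfb2 and Tgfb3, against 35.4% and 18.7% of all genes. Without hypoxic differentiation replicate A, 6 genes were called on differentiation in hypoxia, and 7 without its replicate B, where 52.3% and 44% of all tested genes were called. For hypoxia in growth medium the count was 7 without either (55.1% of all genes in both fits). For hypoxia in differentiation medium it was 9 without A and 7 without B (70% and 67.1%), and for the difference between responses 7 and 6 (64.7% and 59.8%). In each of these fits the members' count and the share of all genes were both above those with all libraries. They did not always keep the same order: on differentiation in hypoxia the higher member count went with the lower share. In 8 libraries of whole cultures, fewer cells of a type and less RNA per cell cannot be told apart. The deposited scale placed the median of all genes at -0.20 for differentiation in normoxia, -0.14 and 0.15 for hypoxia in growth and in differentiation medium, and 0.27 for the difference between responses. After median-of-ratios scaling these medians were 0.02, -0.03, -0.01 and -0.02. Genes that rose made up 38.4%, 32.6%, 57.5% and 65.5% of all calls on the deposited scale and 53.2%, 45.2%, 47.2% and 47.3% after that scaling.

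**Figure D4:**
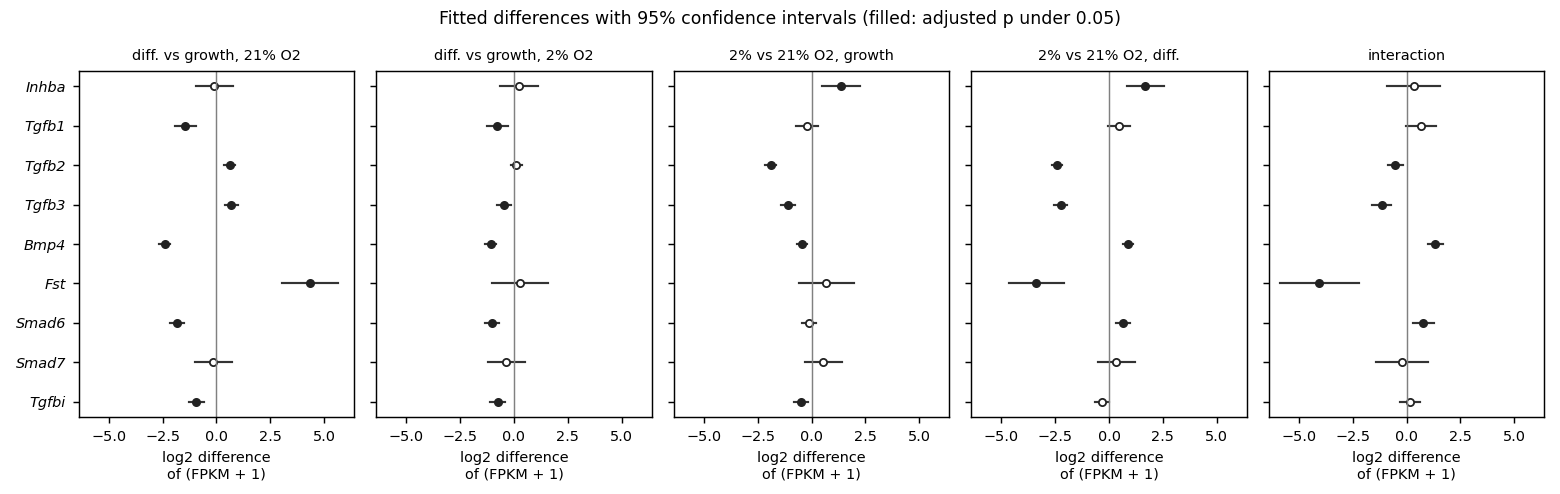
Fitted differences of log2(FPKM + 1) for the 9 tested genes in the 5 comparisons, with 95% confidence intervals. Filled points passed an adjusted p of 0.05. The interval of Fst on normoxic differentiation runs from 3.06 to 5.65, and the intervals of Smad7 include 0 in all 5 panels.

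Other genes of the pathway were taken from 6 lists by role, with 94 of 133 listed genes tested. On differentiation in normoxia 23 rose and 45 fell, with a median change of -0.32 against -0.20 for all genes. On differentiation in hypoxia 6 rose and 35 fell (median -0.28 against 0.07). Hypoxia raised 18 and lowered 25 in growth medium (-0.03 against -0.14), where it raised 13.5% and lowered 28% of all genes. In differentiation medium it raised 27 and lowered 39 (-0.17 against 0.15), where it raised 37.5% and lowered 27.7% of all genes. The difference between responses was positive for 24 and negative for 26 (median -0.13 against 0.27), where the shares of all genes were 35.4% and 18.7%. Of 14 BMP response genes, 10 fell and 3 rose on differentiation in normoxia, and 10 fell and 0 rose in hypoxia. The shares of all tested genes that fell and rose were the 41% and 25.5%, and the 17.6% and 23.3%, given above. Of 20 antagonist and latency genes, 12 and 11 fell and 5 and 1 rose in the same comparisons. Of 22 SMADs and SMAD regulators, hypoxia in growth medium lowered 2 and raised 0, where 28% and 13.5% of all genes were lowered and raised. At an unadjusted p under 0.05 (limma) both counts of 0 were also 0.

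**Figure D5:**
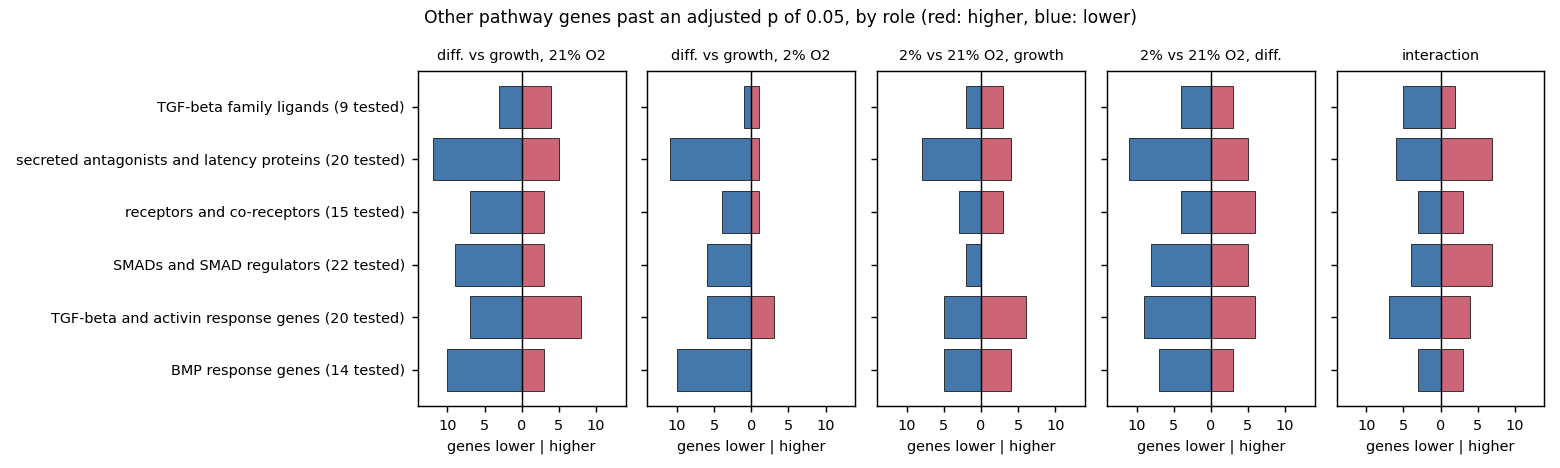
Number of other pathway genes that were lower (blue, to the left) or higher (red, to the right) past an adjusted p of 0.05, by role and comparison. The BMP response genes have no bar to the right on differentiation at 2% oxygen, where 10 of 14 fell.

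Among these genes the largest rises on normoxic differentiation were those of Hfe2, the muscle co-receptor gene hemojuvelin (0.308 and 0.316 to 87.2 and 86.0 FPKM, log2 change 6.06 ± 0.10), the stress-induced ligand gene Gdf15 (4.66 ± 0.53) and the cell cycle inhibitor gene Cdkn1a (3.99 ± 0.16). The largest falls were those of Grem1 (-3.71 ± 0.12), the BMP modulator gene Bmper (-2.57 ± 0.15) and the latent TGF-beta binding protein gene Ltbp2 (-2.54 ± 0.32). In hypoxia differentiation medium raised the matrix gene Postn (2.24 ± 0.18), the type II receptor gene Tgfbr2 (1.02 ± 0.11) and Col1a1 (0.75 ± 0.11) most. It lowered Inhbb, the other activin subunit gene (-2.95 ± 0.11), Ltbp2 (-2.93 ± 0.32) and Id3 (-2.54 ± 0.26) most. Inhbb also fell in normoxia (-2.11 ± 0.11, adjusted p 1.21e-05), unlike Inhba.

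Hypoxia in growth medium raised Gdf15 (2.98 ± 0.53), Fstl3 (2.60 ± 0.17) and Bhlhe40 (2.39 ± 0.10) most, and lowered the matrix gene Emilin1 (-2.42 ± 0.13), the smooth muscle actin gene Acta2 (-2.01 ± 0.51) and the Notch and BMP target gene Heyl (-1.99 ± 0.11) most. The Acta2 call was lost without any 1 of the 6 libraries outside hypoxic differentiation medium, at adjusted p-values of 0.0507 to 0.111. Fstl3 encodes a follistatin relative that also binds activin and myostatin. It was 9.73 and 7.81 FPKM at 21% oxygen and 56.9 and 58.7 at 2% in growth medium, and 18.2 and 16.4 at 21% and 65.5 and 92.3 at 2% in differentiation medium, so its 4 highest libraries were the hypoxic ones, whereas the highest for Fst were those of normoxic differentiation medium. In differentiation medium hypoxia raised Grem1, the collagen crosslinking enzyme gene Lox (3.31 ± 0.13) and the homeobox gene Dlx3 (2.79 ± 0.11) most. It lowered Hfe2 (-6.25 ± 0.10), the ligand gene Gdf5 (-3.15 ± 0.08) and Heyl (-2.97 ± 0.11) most. The response to differentiation medium was more positive in hypoxia for Emilin1 (2.67 ± 0.18), Tgfbr2 (2.399 ± 0.16) and Bmper (2.09 ± 0.21) and more negative for Hfe2 (-5.87 ± 0.15), Cdkn1a (-3.65 ± 0.23) and Gdf15 (-3.64 ± 0.75). All of these passed an adjusted p of 0.05.

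The receptor genes moved unequally. Tgfbr2, the TGF-beta type II receptor gene, was 47.2 and 51.7 FPKM at 21% oxygen and 50.1 and 50.9 at 2% in growth medium, and 18.7 and 18.1 at 21% and 116.0 and 92.3 at 2% in differentiation medium. Its normoxic fall was -1.38 ± 0.11 (adjusted p 7.39e-05), and the oxygen difference in differentiation medium was 2.43 ± 0.11 (adjusted p 5.78e-06). Tgfbr1, the type I partner, was lower in hypoxia in both media, by -0.83 ± 0.13 (adjusted p 0.00270) and -0.77 ± 0.13 (adjusted p 0.00169). Acvr2b, a type II receptor gene for myostatin and activin, ranged from 0.235 to 2.501 FPKM. Its 4 pairwise calls were each lost under at least 1 alternative. Of the feedback and target genes of the TGF-beta branch, Skil rose on normoxic differentiation (1.18 ± 0.16, adjusted p 0.000729) and was lower with hypoxia in that medium (-1.03 ± 0.16, adjusted p 0.00144). Pmepa1 did the same (0.90 ± 0.25, adjusted p 0.0177, and -0.89 ± 0.25, adjusted p 0.0187). Both Pmepa1 calls were lost without normoxic differentiation replicate A or B (adjusted p 0.0782 to 0.0912), the first also without normoxic growth replicate A or B (0.0700 and 0.0766) and the second with only the differentiation libraries fitted (0.0822). Tgfbr1, Acvr2b, Skil, Pmepa1, Dlx2 and Id2, and the comparisons of Tgfbr2, Grem1, Inhbb and Fstl3 beyond the largest changes, were picked after their values were seen.

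Likeness of pattern was measured as Pearson's r of log2(FPKM + 1) over the 8 libraries, which share the 4 groups, so it describes group differences and is given without a p. Bmp4 and Smad6 were each other's nearest (0.99), as were Tgfb2 and Tgfb3 (0.96) and Inhba and Smad7 (0.69). Fst was nearest to Tgfb3 (0.61) and farthest from Bmp4 (-0.85), and Inhba was farthest from Tgfb2 (-0.89). Tgfb1 and Tgfbi were both nearest to Bmp4 (0.97 and 0.78). Among all other tested genes, the 2 nearest to each were Lonrf3 and Ep300 for Inhba, Miip and M1ap for Tgfb1, Cops4 and Mamdc2 for Tgfb2, Arhgap24 and the muscle intermediate filament gene Des for Tgfb3, Mettl7a1 and Csrp2 for Bmp4, Ankrd32 and Zfp330 for Fst, Anpep and Ace for Smad6, 5430405H02Rik and Usp49 for Smad7, and Pcdh18 and Ttc3 for Tgfbi. These coefficients ran from 0.956 to 0.999.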

How the data were processed

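Gene expression was measured by stranded total RNA-seq, per the labels' protocols, in 8 libraries. STAR 2.5.1b, Cufflinks 2.2.1 and build mm9 are named for them in the submitters' processing notes. The authors deposited 1 table of FPKM per gene symbol. Its annotation, use of strand, treatment of shared reads and scaling between libraries are not given in the sources used here. Total counts are not in the table. Relative depth, from the modal ratio of values up to 0.5 FPKM, was 0.633 to 1. Columns were matched to libraries by title.

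limma 3.58.1 (R 4.3.3) was fitted to log2(FPKM + 1) of the 12389 genes (of 17914 above 0) with a mean of at least 1 FPKM in a group, with 4 group means and an intensity trend. It was tested on simulated data. The pseudocount shrinks log2 differences of low genes. Values called "-fold" are ratios of mean FPKM. Tests are two-sided, with Benjamini-Hochberg adjustment over all tested genes and a threshold of 0.05. A permutation test of 2 against 2 cannot go below 0.333. Errors after ± are SE of a fitted difference. Comparisons were the medium at each oxygen level, oxygen in each medium, and the difference between the differentiation responses (interaction).

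The 10 genes and the lists were chosen with earlier results of these data known. Other pathway genes were named by rule: in each comparison, the largest 3 rises and 3 falls past the threshold with no overlap between libraries (for the interaction, the same sign in A and B). Nearest genes were the 1 other member and the 2 tested non-members with the highest correlation. The alternatives were a pseudocount of 0.1 FPKM, no filter, median-of-ratios scaling, a replicate block, leaving out each library, fitting only the libraries compared, and requiring a log2 change of at least 1. In leave-one-out fits the lone library is assumed to vary like the other groups. Promoter sequences are from RefSeq (GRCm38.p6), a build other than that of the expression values.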

Additional observations from a re-analysis of the deposited data

Results flagged for a closer look

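The differentiation responses of 5 genes at 2% and at 21% oxygen were unequal by the interaction test (limma, hypoxic minus normoxic). These were 5 of 9 tested genes, where 54.1% of all 12389 tested genes passed, so the count alone does not set them apart. Fst differed by -4.07 (adjusted p 0.00457), Tgfb3 by -1.15 (adjusted p 0.00213) and Bmp4 by 1.32 (adjusted p 0.000485). Fst, Tgfb3 and Bmp4 each kept the call in all 12 alternatives run for the interaction. Smad6 differed by 0.78 (adjusted p 0.0144) and Tgfb2 by -0.52 (adjusted p 0.0228), and these 2 calls were lost in 2 and 6 of 12 alternatives. The A and the B libraries, matched by letter, gave the same sign for each of the 5 genes. The letters share no stated batch, so this matching is arbitrary. The sum of 15 cell cycle genes, 180.6 FPKM in hypoxic differentiation replicate A and 625.9 in B, differed within a group that enters all 5 tests, and its part in them was not tested. No group had enough libraries for a search for outlying samples.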

How the results depend on the processing

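Calls of the 9 tested genes numbered 7, 5, 5, 6 and 5 for the 5 comparisons, in the order medium at 21% oxygen, medium at 2%, oxygen in growth medium, oxygen in differentiation medium and interaction. In the same order 66.5%, 40.9%, 41.4%, 65.2% and 54.1% of all genes were called. With the letter as a replicate block the members' calls numbered 7, 5, 4, 6 and 5. Of all genes 64%, 35.9%, 37.4%, 63% and 50.6% were then called. The member call lost was Tgfbi with hypoxia in growth medium (adjusted p 0.0507). The letters share no stated batch, and deviations of same-lettered libraries correlated between groups at -0.17 to 0.04. These values cannot show whether same-lettered libraries shared a passage, day or dish, which is not stated. Requiring a log2 change of at least 1 left 4, 2, 3, 4 and 3 members, and 40, 18, 17, 30 and 27 of the 68, 41, 43, 66 and 50 other pathway genes, where 28.6%, 7.47%, 10.2%, 27.6% and 27.5% of all genes passed. With only the libraries compared, 3 members were called on differentiation in hypoxia (23.1% of all genes). Leaving out 1 library gave 3 to 7 members for differentiation in hypoxia (20.2% to 52.3% of all genes), 2 to 7 for hypoxia in growth medium (24.1% to 55.1%) and 3 to 7 for the interaction (41.4% to 64.7%), and 23 to 54 other pathway genes for differentiation in hypoxia. Of 576 values of member differences under an alternative, 514 kept direction and side of the threshold, 35 lost the call, 15 gained one and 12 turned. Those that turned were not called with all libraries. Median-of-ratios scaling turned Inhba (0.11) and Smad7 (0.075) on differentiation in normoxia, and a pseudocount of 0.1 FPKM the Tgfbi interaction (-0.22). Leaving out 1 library moved Inhba between -0.50 and 0.31 (differentiation in normoxia), -0.23 and 0.69 (in hypoxia) and -0.14 and 0.79 (interaction), Fst between -0.66 and 1.23 (differentiation in hypoxia), and Smad7 between -0.97 and 0.28 (differentiation in hypoxia), -0.29 and 0.97 (hypoxia in differentiation medium) and -0.83 and 0.42 (interaction). Of these ends, those of Inhba in normoxia came without a normoxic growth library and the others without a hypoxic differentiation library. For the other changes the cause was not tested. Absolute depth is unknown, and values near that of 3 fragments (Mstn) carry a counting error that is large beside the value.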
